A study of Sorghum bicolor with 14 samples.

Results

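A set of 59 sorghum genes had high transcript levels at 2 stages of the series, 0 to 2 and 10 days after pollination (0-2 and 10 DAP), and lower levels before and after. They were chosen from the 31337 genes of the authors' table by a rule on the values themselves. A member had at least 5 TPM (a transcript level scaled by gene length and by the column total) at both 0-2 and 10 DAP. On the log2(TPM + 1) scale each of these values stood at least 1.5 above those at 1 to 2 days before pollination (1-2 DBP), 20 DAP and 30 DAP, and they lay less than 2 apart. All 5 columns of the table therefore chose the members, and every stage difference below is a description without a test.

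The study followed field-grown Sorghum bicolor of the cultivar M35-1 from the unpollinated pistil at 1-2 DBP to seed at 30 DAP, with 14 libraries of total RNA. Per the labels, 3 libraries each belong to 1-2 DBP, 0-2 DAP, 10 DAP and 20 DAP and 2 to 30 DAP. No genetic change or treatment is named, and the 0-2 DAP libraries carry both pistil and seed among their labels. The cultivar is given for the libraries of the first 2 stages and, for the whole series, in its design text. Each gene has a single TPM value for each stage, so no value has a replicate error, and the depth behind it is not known here. Library accessions of 1-2 DBP and 0-2 DAP form 1 block and those of 10, 20 and 30 DAP another, so each block holds 1 of the stages where the members are high and at least 1 where they are low. Whether the blocks were prepared apart is not stated.

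In cereals the pistil holds the ovary with its embryo sac, and pollination is followed by double fertilization, which starts an embryo and an endosperm. The endosperm first multiplies its nuclei without walls, then forms cells that divide, and later fills with starch and storage protein while the surrounding maternal tissues of the ovary change or die back. Maturation ends with drying. The labels do not say which of these phases each stage falls in, and this was not tested. The members are therefore described by stage label only. They are genes with higher levels in the earlier stages after pollination than before it or in the later seed. Bulk RNA cannot tell fewer cells of a type from less RNA per cell.

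The table pairs its IDs with no gene names, and 0 of the 59 members, as 0 of all IDs, occur in the RefSeq gene table used here (assembly Sorghum_bicolor_NCBIv3). No role, protein, promoter or cell type is therefore given for any member. The stage labels could not be checked against marker genes for the same reason. Members are called by their IDs, in which the digits before the letter G stand for the chromosome.

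The highest level among the members belonged to Sobic.002G420900. It had 198 TPM in the pistil, 906 TPM at 0-2 DAP, 975 TPM in the 10 DAP seed, 161 TPM in the 20 DAP seed and 1.76 TPM in the 30 DAP seed. The pistil and the 20 DAP seed still held well over 100 TPM of this transcript, so it peaked at the middle stages without being limited to them. Sobic.001G266300 was second in level, with 2.01 TPM in the pistil, 609 TPM at 0-2 DAP, 493 TPM in the 10 DAP seed and 0.398 TPM in the 20 DAP seed, and it was listed at 0 in the 30 DAP seed. This ID was near 0 outside its high stages, and its margin, the lower of its values at 0-2 and 10 DAP less the highest of the other 3 on the log2(TPM + 1) scale, was 7.36 against 2.19 for Sobic.002G420900.

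Between them these 2 IDs held 28.3% of the members' TPM at 0-2 DAP and 28.5% in the 10 DAP seed. In all, 12 members averaged at least 100 TPM over 0-2 and 10 DAP, 28 averaged from 20 to under 100 TPM, and 19 averaged less. The median TPM of the 59 was 4.42 in the pistil, 31.5 at 0-2 DAP, 38.6 in the 10 DAP seed, 3.60 in the 20 DAP seed and 0.230 in the 30 DAP seed. Over the 13361 genes with at least 5 TPM at both 0-2 and 10 DAP, the medians at the same stages were 32.0, 31.1, 17.7, 11.4 and 6.68 TPM. Members were thus of ordinary level for such genes at 0-2 DAP and lay above them in the 10 DAP seed. The rule touches this too, since it selects for 10 DAP values above the other stages and less than 2 from those at 0-2 DAP. Members lay below such genes in the pistil and in the late seed, where the rule selects for low values. The 59 together held 0.0890% of all TPM in the pistil, 0.536% at 0-2 DAP, 0.515% in the 10 DAP seed, 0.0666% in the 20 DAP seed and 0.00522% in the 30 DAP seed.

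**Figure D1:**
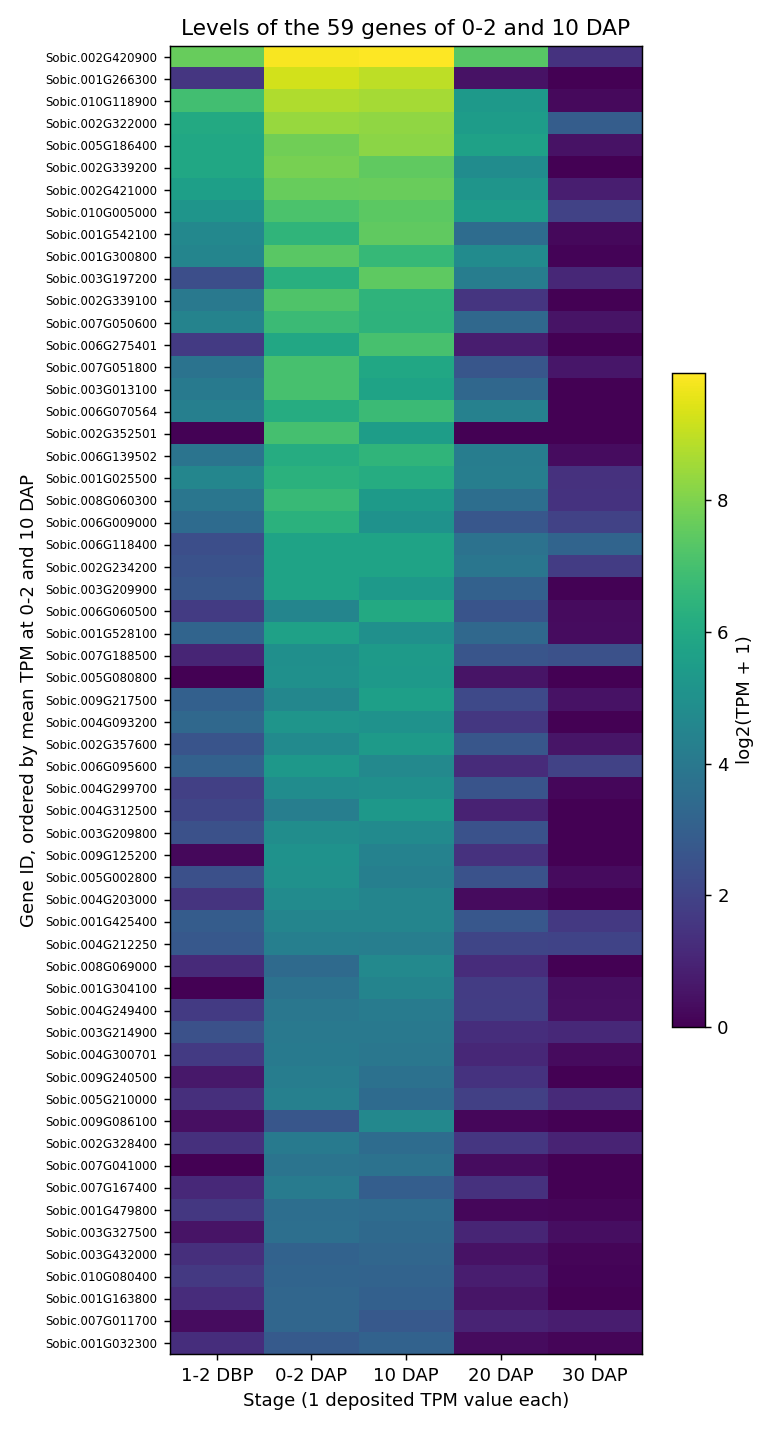
Level of each of the 59 members at the 5 stages as log2(TPM + 1), 1 row per gene ID and 1 deposited value per cell, with rows ordered by the mean TPM at 0-2 and 10 DAP. The columns of 0-2 and 10 DAP are the brightest in every row, as the rule requires, while many rows keep an intermediate level in the pistil and the 20 DAP seed and are darkest in the 30 DAP seed.

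The description of the members as genes of 0-2 and 10 DAP only did not hold for most of them. At 1-2 DBP 25 members had at least 5 TPM, and 25 also did in the 20 DAP seed. Only 5 of the 59 were below 1 TPM in all 3 other stages: Sobic.002G352501, Sobic.005G080800, Sobic.007G041000, Sobic.009G086100 and Sobic.007G011700, named after their values were seen. The first 3 are described further down, Sobic.009G086100 had 0.329 TPM in the pistil and 0.120 TPM in the 20 DAP seed, and Sobic.007G011700 had 0.265 and 0.967 TPM there. Relative to each gene's mean at 0-2 and 10 DAP, the median member kept 16.5% of its TPM in the pistil, 11.6% in the 20 DAP seed and 0.533% in the 30 DAP seed. The highest remaining share was 31.2% in the pistil, 27.7% in the 20 DAP seed and 16.1% in the 30 DAP seed, which the margin of the rule caps.

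**Figure D2:**
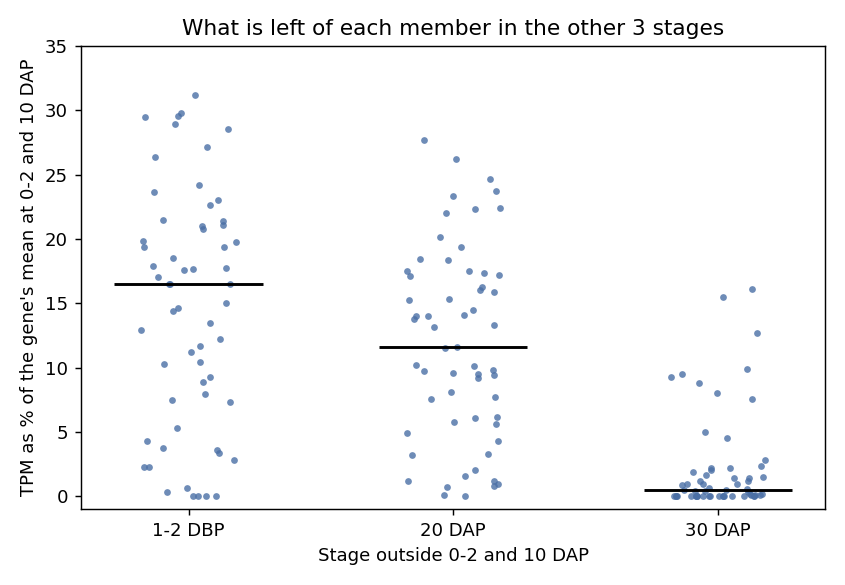
TPM of each member in the pistil (1-2 DBP), the 20 DAP seed and the 30 DAP seed as a percentage of its own mean at 0-2 and 10 DAP, 1 point per member with sideways scatter for visibility, and a black line at the median of 59. The points spread from 0 to 31.2% in the pistil and from 0.0303 to 27.7% in the 20 DAP seed, and in the 30 DAP seed 56 of the 59 lie below 10%.

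The pistil was the highest of the other stages for 32 members and the 20 DAP seed for 27, and 30 DAP was the highest for 0, all as deposited. This order turned with the scaling. The 20 DAP seed was the highest other stage for 41 members after median-ratio scaling and for 37 after quantile normalization. It was the highest for 38 without the 100 most abundant genes. Under these scalings 30 DAP was the highest for 6, 9 and 0 members in the same order. Among genes with at least 5 TPM at both 0-2 and 10 DAP, 292 cleared the margin of 1.5 over 1-2 DBP, 999 cleared it over 20 DAP and 5124 over 30 DAP. As deposited, the pistil was thus the stage that removed most candidates. Over 1-2 DBP and 20 DAP together 72 genes cleared it and over all 3 stages 67, of which 8 were then set aside because their values at 0-2 and 10 DAP lay 2 or more apart. Of those 8, 5 were higher at 0-2 DAP and 3 in the 10 DAP seed.

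Over the 24404 genes that reached 1 TPM in any stage, called the genes tested below, 4.28% stood at least 1.5 higher at 0-2 DAP than in the pistil and 7.91% stood as much higher in the 10 DAP seed than in the 20 DAP seed. At 0-2 DAP 39.9% stood that much above 20 DAP and 53.4% above 30 DAP. At 10 DAP 8.76% stood that much above 1-2 DBP and 32.1% above 30 DAP. All 59 members did so in each contrast by the rule. Their median stood 2.42 higher at 0-2 DAP than in the pistil, where the median of the genes tested was 0.02, and the difference of the 20 DAP seed from the 10 DAP seed had a median of -2.67 against -0.47. The same rule applied to other neighbouring stages found 2955 genes for 1-2 DBP with 0-2 DAP. It found 465 for 10 with 20 DAP and 150 for 20 with 30 DAP. As deposited, the step across 0-2 and 10 DAP thus gave the smallest of these 4 sets. It is also the only pair that spans both blocks of library accessions, so stage and block cannot be told apart there. Counts for the other pairs were not recomputed under other scalings.

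At the edge of the rule stood Sobic.010G080400, the member with the smallest margin, 1.51. It had 2.11 TPM in the pistil, 8.19 TPM at 0-2 DAP, 7.86 TPM in the 10 DAP seed, 0.738 TPM in the 20 DAP seed and 0.0740 TPM in the 30 DAP seed. Just outside lay Sobic.007G172100 with a margin of 1.49 and values of 76.9, 271, 765, 95.6 and 1.04 TPM at the same stages in order. The gene left out was the more abundant at every stage, and it too was highest at 0-2 and 10 DAP, so as deposited the threshold alone parts these IDs. Under the scalings described further down they lie farther apart, with margins of 1.28 to 1.61 for Sobic.010G080400 and 0.01 to 0.86 for Sobic.007G172100.

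A group of 7 members had margins of at least 3, a limit chosen after the values were seen. Besides Sobic.001G266300 it held Sobic.002G352501, with 0.0397 TPM in the pistil, 129 TPM at 0-2 DAP, 44.5 TPM in the 10 DAP seed and 0.0262 TPM in the 20 DAP seed, and listed at 0 in the 30 DAP seed. Its margin was 5.45, and it was the member that stood lowest in the 10 DAP seed relative to 0-2 DAP, by -1.51 on the log2(TPM + 1) scale. Sobic.006G275401 ran the other way within the same pair of stages, with 61.3 TPM at 0-2 DAP and 132 TPM in the 10 DAP seed, against 2.18 TPM in the pistil, 0.728 TPM in the 20 DAP seed and a listing at 0 in the 30 DAP seed.

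Sobic.005G080800 was listed at 0 in the pistil and in the 30 DAP seed and had 30.8 TPM at 0-2 DAP, 40.3 TPM in the 10 DAP seed and 0.424 TPM in the 20 DAP seed. Sobic.007G041000 was likewise listed at 0 in the pistil and in the 30 DAP seed, with 13.2 TPM at 0-2 DAP, 12.5 TPM in the 10 DAP seed and 0.261 TPM in the 20 DAP seed. For these IDs the pistil column read 0, which without depth cannot be told from a level too low to be sampled, and the others of the group were at 2.18 TPM or less there. Sobic.004G203000 had 1.78, 26.7, 21.9, 0.238 and 0.0166 TPM from 1-2 DBP to 30 DAP in stage order. Sobic.009G125200 had 0.165, 32.8, 20.3 and 1.64 TPM from 1-2 DBP to 20 DAP and was listed at 0 in the 30 DAP seed. These sharpest members spanned a wide range of levels, from 13.2 TPM to 609 TPM at 0-2 DAP. A margin cannot exceed the lower of the log2(TPM + 1) values at 0-2 and 10 DAP, so the level of a member limits its margin.

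Between 0-2 and 10 DAP the members differed little as deposited, within the limit set by the rule. A total of 35 members had the higher value at 0-2 DAP and 24 in the 10 DAP seed. Of the 59, 47 lay within 2-fold and 33 within 0.5 on the log2(TPM + 1) scale, all as deposited. The 6 that were at least 2-fold higher in the 10 DAP seed make up 10.2% of the members, against 11% of the 24404 genes tested and 6.53% of the genes with at least 5 TPM at both stages. The 6 that were at least 2-fold lower also make up 10.2%, against 39.7% and 38.4%, and the rule's limit of 2 touches these counts. The median difference of the 59 was -0.08, against -0.72 over all genes tested, and after median-ratio scaling these medians were 0.71 and -0.02. The extremes were Sobic.002G352501 at -1.51 and Sobic.009G086100 at 1.98, the latter with 5.27 TPM at 0-2 DAP and 23.7 TPM in the 10 DAP seed.

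**Figure D3:**
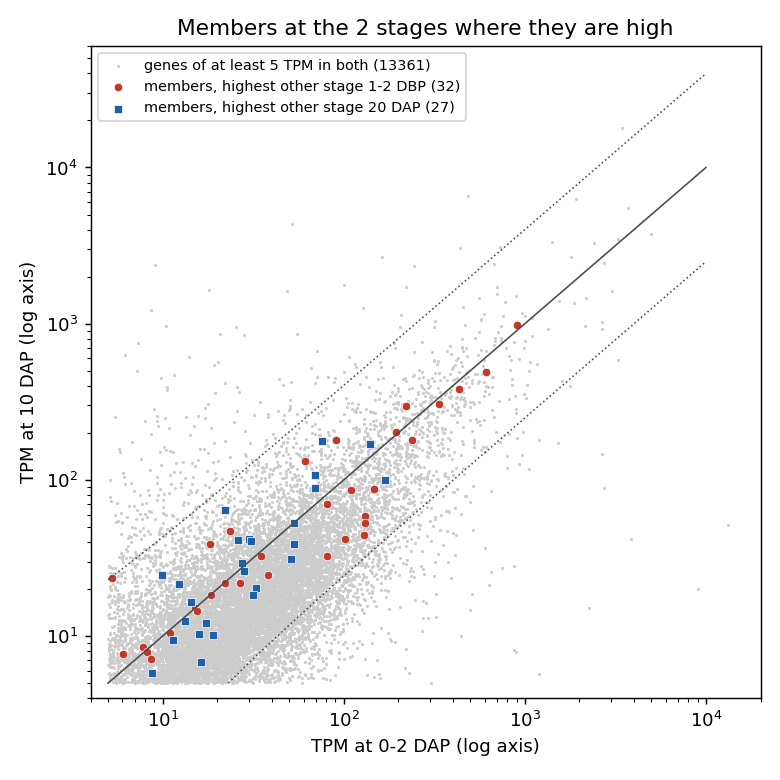
TPM at 0-2 DAP against TPM in the 10 DAP seed on log axes, with the 13361 genes of at least 5 TPM in both in grey and the 59 members coloured by which other stage was highest as deposited, 1-2 DBP for 32 and 20 DAP for 27. The solid line marks equal values and the dotted lines a distance of 2 on the log2(TPM + 1) scale, and the members lie along the solid line from 5.27 to 906 TPM at 0-2 DAP.

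The rule capped the members' values in the 20 DAP seed and in the pistil but did not set the difference between them. As deposited this difference ran from -2.48 to 1.83 on the log2(TPM + 1) scale. A value 2-fold or more below that of the pistil was found in the 20 DAP seed for 14 members, or 23.7%, against 58.2% of the genes tested and 65.8% of the genes with at least 5 TPM at 0-2 and 10 DAP. At least 2-fold higher were 6, or 10.2%, against 10.1% and 4.64%. The median member differed by -0.25 between these stages as deposited and the median gene by -1.24. Dividing each column by median-ratio factors turned the members' median to 0.99 and moved that of all genes to -0.04. The sign for the members thus depends on the scaling. Under both they lay above the median gene, whose values the rule did not hold down at either stage. Since the caps touch both values, this contrast is a description of the selected genes and supports nothing further.

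At 30 DAP the members were close to absent as deposited. There 18 of the 59 were listed at 0, 44 were below 1 TPM, and 54 had their lowest or joint lowest value. Low values at 30 DAP were not particular to the members. The median there was 2.60 TPM over the genes tested and 6.68 TPM over those with at least 5 TPM at 0-2 and 10 DAP. Both medians were the lowest of the 5 stages, against 0.230 TPM for the members. Shares of all genes at 0, below 1 TPM or lowest at 30 DAP are not given here. Between the 20 DAP seed and the 30 DAP seed 35 members were at least 2-fold lower, or 59.3%, against 28.2% of the genes tested and 36% of those with at least 5 TPM at 0-2 and 10 DAP. At least 2-fold higher were 0, against 9.03% of the genes tested and 7.89% of the genes with at least 5 TPM at 0-2 and 10 DAP. The margin of the rule caps the members' values at both stages and so touches these counts. The median member differed by -1.40 and the median gene by -0.42, and after median-ratio scaling these medians were -1.65 and -0.06.

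A few members kept some transcript in the 30 DAP seed. Sobic.006G118400 had 8.24 TPM there and 12.4 TPM in the 20 DAP seed, after 4.21 TPM in the pistil and 53.0 and 53.2 TPM at 0-2 and 10 DAP. Sobic.002G322000 had 6.67 TPM in the 30 DAP seed, with 63.9, 337, 307 and 44.5 TPM before it in stage order. No other member reached 5 TPM there. Sobic.006G095600 was the 1 member with more in the 30 DAP seed than in the 20 DAP seed, 2.91 against 1.36 TPM. Higher in the 30 DAP seed than in the pistil were 4 members, namely Sobic.006G118400, Sobic.007G188500, Sobic.001G304100 and Sobic.007G011700.

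The members came from all 10 chromosome prefixes. The most were 10 with IDs beginning Sobic.001G, or 16.9% of the members against 19.4% of the genes with at least 5 TPM at 0-2 and 10 DAP. Next came 9 beginning Sobic.002G, or 15.3% against 12.8%. IDs whose last digits are not 00 numbered 6, or 10.2% against 6.71%. None of these shares was tested, and no prefix held more than 10 members.

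Members stood side by side in the ID order of the table in 3 cases, named after they were found, and the rule did not use the order. The 6 IDs are 10.2% of the members, and of the 24345 genes tested that are no members 0.366% stood beside a member, shares that were not tested. How often neighbouring genes share a course in general was not tested either. The most abundant was Sobic.002G420900 with Sobic.002G421000, whose values were 48.0, 194, 203, 34.8 and 0.796 TPM in stage order. The first of these IDs was 4.12 times the second in the pistil, 4.66 times at 0-2 DAP, 4.81 times in the 10 DAP seed, 4.62 times in the 20 DAP seed and 2.21 times in the 30 DAP seed. The pair thus kept nearly 1 proportion through the first 4 stages. On its other side Sobic.002G420800, no member, also was higher after pollination, with 51.5, 179, 247, 157 and 0.920 TPM, and differed in its level in the 20 DAP seed, where its difference from the 10 DAP seed was -0.65 on the log2(TPM + 1) scale against -2.59 for Sobic.002G420900.

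The second pair was Sobic.002G339100 with Sobic.002G339200. The former had 15.1, 146, 87.1 and 1.88 TPM from 1-2 DBP to 20 DAP and the latter 59.5, 237, 180 and 27.4 TPM, and both were listed at 0 in the 30 DAP seed. Their proportion was not fixed, with Sobic.002G339200 at 1.62 times its neighbour at 0-2 DAP, 2.06 times in the 10 DAP seed and 14.5 times in the 20 DAP seed. In the third pair Sobic.003G209800 had 4.47, 28.3, 26.0 and 4.66 TPM and a listing at 0 in the 30 DAP seed, and Sobic.003G209900 had 5.37, 53.0, 38.9, 7.37 and 0.0513 TPM. The next IDs after this pair took the opposite course, since Sobic.003G209966 was below 1 TPM up to 10 DAP and had 17.2 TPM in the 20 DAP seed and 43.4 TPM in the 30 DAP seed.

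Whether the IDs of a pair are copies of each other that share reads was not tested, since no sequence was used here. If they are, the division of reads between them is uncertain.

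**Figure D4:**
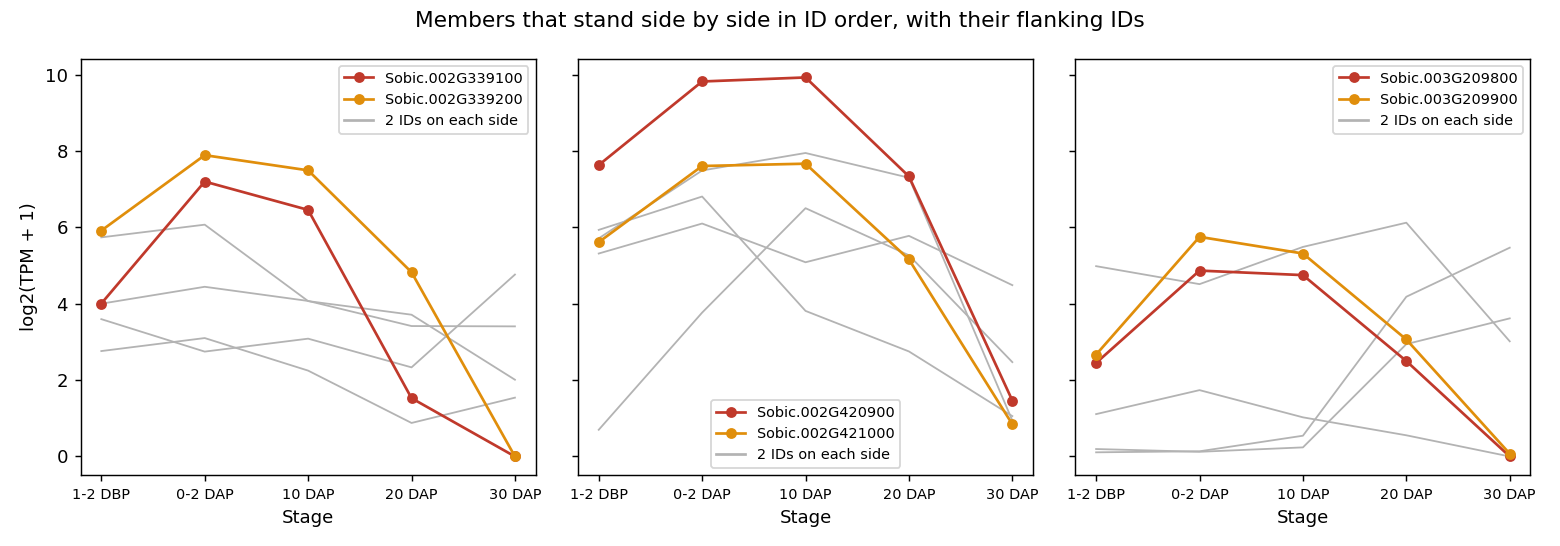
Levels as log2(TPM + 1) over the 5 stages for the 3 pairs of members that are neighbours in ID order, in colour, with the 2 IDs on each side in grey. The members of each pair are highest at 0-2 and 10 DAP, and of the grey lines the 1 for Sobic.002G420800 comes closest, with 157 TPM still in the 20 DAP seed.

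Of the 7 members with margins of at least 3, 3 stood beside an ID that missed the rule but had both its values at 0-2 and 10 DAP above all others and reached 5 TPM in at least 1 of them. Of the other 52 members 9 stood beside such an ID, or 17.3%, and of the 13302 genes with at least 5 TPM at 0-2 and 10 DAP that are no members 11.7% did. These shares were not tested, and 7 members are few. Next to Sobic.002G352501, Sobic.002G352401 had 0.0541, 6.53, 44.1 and 1.37 TPM from 1-2 DBP to 20 DAP and was listed at 0 in the 30 DAP seed. It failed because its peak stages lay 2.58 apart, and the neighbours were thus high in opposite proportion, the member at 0-2 DAP and the other in the 10 DAP seed. Next to Sobic.007G041000, Sobic.007G040900 had 4.30, 22.1, 178 and 6.61 TPM and a listing at 0 in the 30 DAP seed, and it failed in the same way. Beside Sobic.005G080800, Sobic.005G080700 reached 12.3 TPM at 0-2 DAP and 3.81 TPM in the 10 DAP seed, below the minimum of 5 TPM.

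The member Sobic.005G186400 lies in ID order next to Sobic.005G186300, which had 1510 TPM in the 10 DAP seed and 4289 TPM in the 20 DAP seed. The member itself had 59.3 TPM in the pistil, 220 TPM at 0-2 DAP, 295 TPM in the 10 DAP seed, 49.8 TPM in the 20 DAP seed and 0.411 TPM in the 30 DAP seed. It was thus present before its neighbour, which was at 0.0317 TPM at 0-2 DAP, and stood low where the neighbour was highest.

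Which genes meet the rule depended on how the columns were put on 1 scale. The 100 genes of highest mean TPM held 9.86%, 11.1%, 34.8%, 52.4% and 45.2% of all TPM in stage order, and since each column has the same total, a larger share there leaves less for all other genes. Median-ratio factors were 1.88, 1.89, 1.03, 0.673 and 0.411 in the same order. After division by them 33 genes met the rule, 20 of them among the 59, and of the 39 lost 34 missed the margin over 20 DAP. After quantile normalization 25 members remained, and 38 remained when the 100 most abundant genes were left out. Sobic.002G420900, with a margin of 1.00 after median-ratio scaling, was among those lost, as were Sobic.002G421000 and both IDs of the third pair.

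Members that met the rule as deposited and under all 3 scalings numbered 20. They include all 7 with margins of at least 3 and both IDs of the second pair. As deposited the pistil was the highest other stage for 16 of the 20, after median-ratio scaling for 8, after quantile normalization for 8 and without the 100 most abundant genes for 13. The margin of Sobic.001G266300 was 7.29 to 7.83 under the scalings and that of Sobic.002G352501 was 5.41 to 6.04. Another of the 20, Sobic.010G118900, had 121, 434, 384, 40.0 and 0.191 TPM in stage order and was the third most abundant member. For the other 39 members, membership depends on the scaling.

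**Figure D5:**
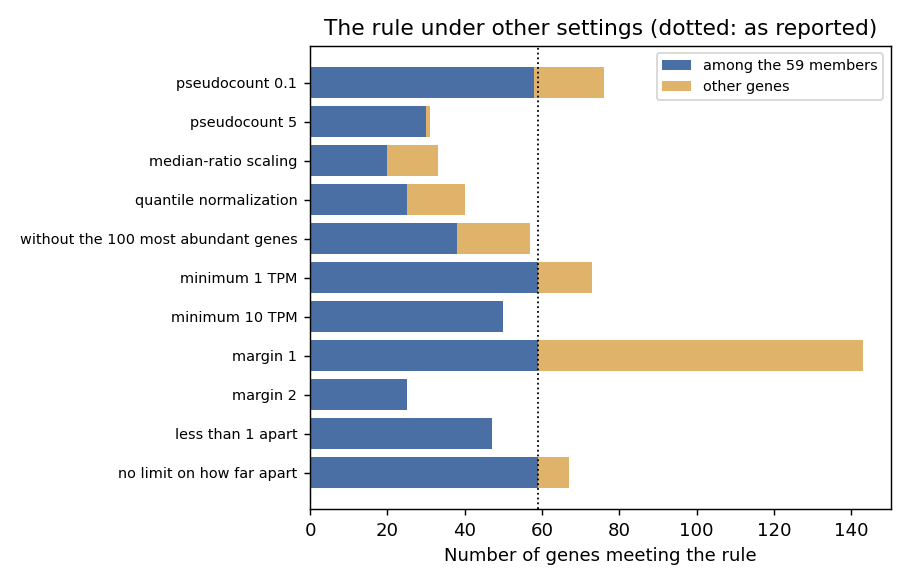
Number of genes meeting the rule under each other setting, with the part that belongs to the 59 members in blue and other genes in yellow, and a dotted line at 59. Median-ratio scaling left 20 members and quantile normalization 25, while a margin of 1 in place of 1.5 gave 143 genes.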

How the data were processed

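RNA of 14 libraries was sequenced, and the authors deposited 1 table of TPM values with 1 column per stage, per the file headers. The submitters' processing notes list HISAT2, featureCounts 2.2.0 and DESeq2 and give no role to any. The sources used here do not give the genome build, the annotation or how libraries were combined into a column. Every column has the same total, and TPM keeps no depth.

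The rule and log2 differences (pseudocount 1) were computed in Python 3.11.15 with numpy 2.4.6 and pandas 2.3.3, and the rule's code was tested on simulated profiles. With 1 value per stage no test could be run. Background counts cover the 24404 genes that reached 1 TPM in any stage. The members and lists were chosen with earlier results of these data known. Of the named IDs, those of highest mean level, of largest margin and at the threshold follow a rule that allowed 2 of each kind for IDs without names, and all others were chosen after their values were seen. Planned gene lists by description could not be used. Alternatives were other pseudocounts, scalings, minimum levels and margins.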

Additional observations from a re-analysis of the deposited data

How the results depend on the processing

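The number of genes meeting the rule, 59, moved by more than 1.5 times to 31 with a pseudocount of 5, to 33 after median-ratio scaling, to 143 with a margin of 1 and to 25 with a margin of 2. The members' median difference between 10 and 0-2 DAP was -0.08 as deposited, 0.71 with median-ratio factors and 0.63 with quantile normalization. Between 20 and 10 DAP it was -1.87 with a pseudocount of 5, against -2.67. Between 30 and 20 DAP it was -3.05 with a pseudocount of 0.1, -0.48 with 5 and -2.15 without the 100 most abundant genes, against -1.40. Leaving these out raised the members' share of TPM to 0.791% in the 10 DAP seed, 0.140% in the 20 DAP seed and 0.00954% in the 30 DAP seed. Of the genes left out 0 were members, so by arithmetic these shares rose because the remaining total was smaller. Why the other values moved was not tested. Of 300 recomputed differences of 15 named IDs, 98 moved by more than 1.5 times and 0 changed sign after passing 2-fold. Background counts of 2-fold differences between neighbouring stages were recomputed only with no filter and with a filter of 5 TPM. In these 16 recomputations they moved by less, and counts were compared, not shares. Dropping the filter could not change them, since genes below 1 TPM throughout cannot differ by 2-fold on the log2(TPM + 1) scale. They were not recomputed under other scalings. Background counts at the margin of 1.5, for 20 DAP against 1-2 DBP and among genes with at least 5 TPM at 0-2 and 10 DAP were not recomputed at all. No paired analysis was possible because each stage has a single column, and leaving out replicates was not run for the same reason. Depth is not known here, so values near 0 cannot be told from sampling.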
